A study of Mus musculus with 65 samples.

Results

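Hepatocytes whose Lats1 and Lats2 genes had been cut by Cas9 were compared at 3 and 2 weeks post injection (wpi). The libraries are those that the labels call coinjection: 4 at 3 wpi and 4 at 2 wpi, each the reads of 1 cut site (Lats1-sg1, Lats1-sg2, Lats2-sg1 or Lats2-sg2). With the 4 empty-vector (EV) libraries of these sites, taken at 2 wpi, they make up 12 of the 65 libraries of the series, which covers 21 cut sites. They were chosen by label and matched by site. All groups, EV included, came from mice of genotype Rosa-LSL-Cas9-EGFP, in which a stop cassette that Cre recombinase removes lies before Cas9 and EGFP at the Rosa locus. All had received adeno-associated virus (AAV) through the retro-orbital route, carrying sgRNAs in the coinjection arm and an empty sgRNA cassette in EV. The labels used here do not give the source of Cre, the age of the mice, which sgRNAs a virus carried, how many animals gave a library, or whether the 4 sites share animals. Each group is 1 library, so every test below compares 2 libraries and not 2 conditions, and animals and times cannot be told apart.

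LATS1 and LATS2 are the paralogous kinases at the end of the Hippo cascade: they phosphorylate the coactivators YAP and TAZ and thereby keep them out of the nucleus. In liver, losing both kinases is known to release YAP and TAZ, which drive growth and a biliary gene programme. Cas9 leaves a double-strand break that most mammalian cells close by end joining. Ends that are cut with an overhang and filled in before ligation give 1 bp insertions, trimmed ends give small deletions, and ends that pair through short repeats on both sides (microhomology) give deletions that drop 1 copy of the repeat. On the mm10 build, Lats1 lies on chromosome 10 between 7681200 and 7716461 and Lats2 on chromosome 14 between 57689662 and 57746212. The exons that the sgRNAs cut were not placed here, because the deposited positions count from the start of each amplicon and its sequence was not used.

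The 12 libraries held 169562 reads of amplified genomic DNA, between 4095 and 27974 in a coinjection library and between 6082 and 25575 in an EV library. A read whose net length change at the cut was not 0 counted as an indel read, and the indel share is its percentage of all reads of the library. Reads carried no molecular identifiers, so the 95% intervals given below cover counting error only. The share is one of reads: fewer edited cells and fewer edited copies per cell cannot be told apart, and genomic DNA holds no marker against which to check the labelled cell type. The reads came from 2 tiles of the sequencer, whose indel shares differed by at most 2.63 points within a coinjection library.

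All 4 sites carried fewer indel reads at 3 wpi than at 2 wpi. At Lats1-sg1 the indel share was 40.7% at 3 wpi (2553 of 6268 reads, interval 39.5 to 41.96%), against 51.0% at 2 wpi (5253 of 10308 reads, 49.99 to 51.9%). Lats1-sg2 stood at 38.2% at 3 wpi (2189 of 5734 reads, 36.9 to 39.4%), against 44.9% at 2 wpi (1839 of 4095 reads, 43.4 to 46.4%). These are the sites with the highest shares at both times. Lats2-sg1 had 33.3% at 3 wpi (9310 of 27974 reads, 32.7 to 33.8%), against 39.4% at 2 wpi (9026 of 22917 reads, 38.8 to 40.02%). Lats2-sg2 had 35.4% at 3 wpi (5975 of 16877 reads, 34.7 to 36.1%), against 39.8% at 2 wpi (5797 of 14554 reads, 39.03 to 40.6%). At no site did the intervals of both times overlap.

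The EV libraries of the same sites held 0.0858%, 0.0658%, 0.0821% and 0.102% indel reads (9, 4, 21 and 19 reads, in the order Lats1-sg1, Lats1-sg2, Lats2-sg1, Lats2-sg2). All 8 coinjection libraries lay above the EV library of their site by the two-sided Fisher's exact test adjusted over the 44 sgRNA libraries of the series, of which 100% did so. Of the few EV indel reads, the 1 bp insertion at the cut made up 8 of 9 at Lats1-sg1, 7 of 21 at Lats2-sg1 and 7 of 19 at Lats2-sg2. At Lats1-sg2 it was 1 of 4, and the 2 bp deletion that leads in the coinjection libraries of this site was in no EV read.

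**Figure D1:**
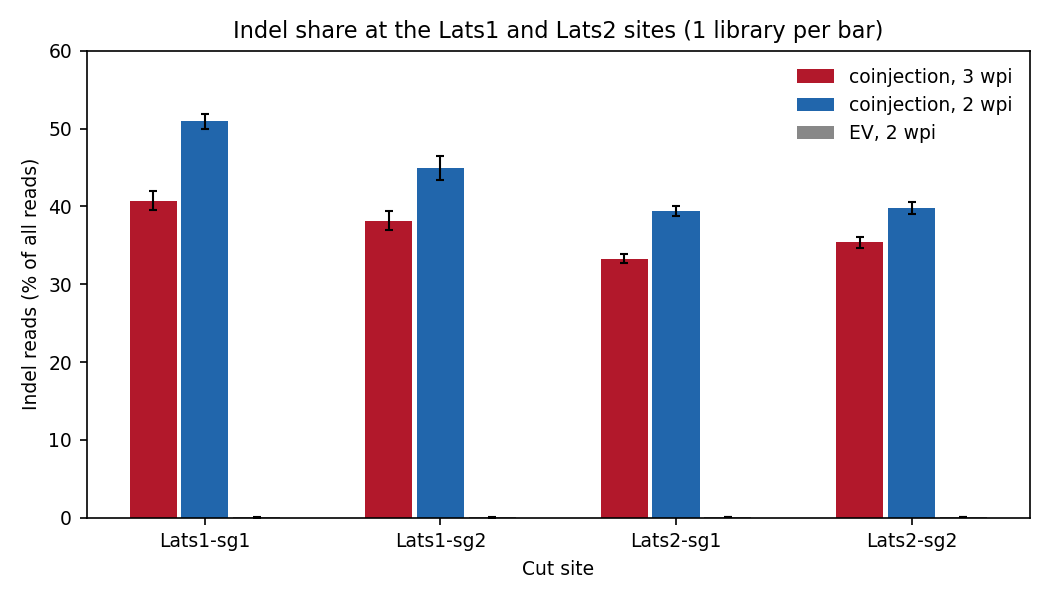
Indel share (percent of all reads) of each library at the 4 cut sites, with coinjection at 3 wpi, coinjection at 2 wpi and EV at 2 wpi side by side; bars are single libraries and error bars are exact 95% intervals of the counts. At each site the 3 wpi bar (33.3 to 40.7%) is below the 2 wpi bar (39.4 to 51.0%), and the EV bars, at most 0.102%, are not visible above the axis.

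The difference was largest at Lats1-sg1. The share fell by 10.2 points at Lats1-sg1 (3 minus 2 wpi, interval -11.8 to -8.67, adjusted Fisher p = 2.43e-37). It fell by 6.73 points at Lats1-sg2 (-8.71 to -4.76, adjusted Fisher p = 2.82e-11). At Lats2-sg1 it fell by 6.10 points (-6.94 to -5.26, adjusted Fisher p = 7.87e-46) and at Lats2-sg2 by 4.43 points (-5.50 to -3.35, adjusted p = 8.89e-16). The tests are two-sided Fisher's exact tests, adjusted by Benjamini-Hochberg over the 20 time comparisons of the series. All 20 passed (100%), and 35% of the 20 were lower at the later time, so passing is common here while the direction is that of 7 comparisons, these 4 among them. As a ratio, 3 wpi held 0.799 of the 2 wpi share for Lats1-sg1 (0.771 to 0.828), 0.8501 for Lats1-sg2 (0.811 to 0.891), 0.845 for Lats2-sg1 (0.826 to 0.865) and 0.889 for Lats2-sg2 (0.864 to 0.915). Over the 4 sites the mean change was -6.87 points, with an SD of 2.44 points between sites. Sites are not replicates of the time comparison, and an exact sign-flip test over 4 of them cannot give a p below 0.125, so none is read from it. Within each tile the share was lower at 3 wpi at every site. The tiles gave -9.84 and -10.6 points for Lats1-sg1, -8.85 and -4.66 points for Lats1-sg2, -5.47 and -6.72 points for Lats2-sg1, and -3.63 and -5.19 points for Lats2-sg2.

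The sites had the same order at both times: Lats1-sg1 above Lats1-sg2, Lats2-sg2 and Lats2-sg1. Lats1-sg1 exceeded Lats1-sg2 by 2.55 points at 3 wpi (0.804 to 4.30, adjusted Fisher p = 0.00463) and by 6.05 points at 2 wpi (4.25 to 7.85, adjusted p = 1.03e-10). Lats1-sg2 exceeded Lats2-sg2 by 2.77 points at 3 wpi (1.33 to 4.23) and by 5.08 points at 2 wpi (3.36 to 6.80). Both Lats2 sites stood apart from each other at 3 wpi, where Lats2-sg1 minus Lats2-sg2 was -2.12 points (-3.03 to -1.22, adjusted Fisher p = 6.03e-06). At 2 wpi that difference was -0.445 points (-1.46 to 0.570, adjusted Fisher p = 0.392) and did not pass the threshold of 0.05. These p-values come from two-sided Fisher's exact tests adjusted over the 6 site pairs at both times.

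Set against each other as paralogs, the Lats1 sites averaged 39.5% and the Lats2 sites 34.3% at 3 wpi, a difference of 5.11 points. At 2 wpi the averages were 47.9% at Lats1 and 39.6% at Lats2, a difference of 8.33 points. At both times each Lats1 site lay above each Lats2 site. The mean change was -8.48 points at Lats1 and -5.27 points at Lats2, and Lats1 minus Lats2 was -3.21 points (counting interval -4.64 to -1.79). In the tiles taken alone this difference was -4.79 and -1.68 points. It was smallest, at -1.05 points, with the leading allele left out. Between single sites, the change at Lats1-sg2 minus that at Lats2-sg1 was -0.628 points (-2.77 to 1.52). For Lats1-sg1 minus Lats2-sg2 it was -5.80 points (-7.69 to -3.91). With 2 sites per gene an exact two-sided permutation test cannot give a p below 0.333, so a difference between the paralogs as genes cannot be tested here, for the level or the change. On the ratio scale the geometric mean ratio of 3 over 2 wpi was 0.824 at Lats1 and 0.867 at Lats2.

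The kind of indel that made up the largest part of the lower share differed between the sites. A frequent kind makes up a large part even where it falls only in proportion, so its share of indel reads is given too. Indel reads were put into 6 classes: 1 bp insertions, insertions of 2 bp or more, 1 bp deletions, deletions of 2 to 19 bp with at least 2 bp of microhomology, other deletions of 2 to 19 bp, and deletions of 20 bp or more. At Lats1-sg1 the 1 bp insertion held 28.9% of all reads at 3 wpi, against 37.5% at 2 wpi, which makes up 83.4% of the site's difference. It held 73.5% of the site's indel reads at 2 wpi. At Lats2-sg2 the 1 bp insertion was again the largest term, with 26.2% of reads at 3 wpi and 29.2% at 2 wpi (67.6% of the difference). That is no more than its 73.3% of indel reads at 2 wpi. Lats2-sg1 behaved otherwise. There the 1 bp insertion was level at 12.5% of reads at 3 wpi and 12.6% at 2 wpi. The 1 bp deletions held 4.19% at 3 wpi, against 8.85% at 2 wpi. This was 76.4% of the difference, from a class with 22.5% of indel reads at 2 wpi.

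Deletions made up a larger part of indel reads at Lats1-sg2 (80.7% at 3 wpi, 81.0% at 2 wpi) than at Lats2-sg1 (57.4% and 63.2%) or at the other two sites (between 20.1 and 23.2%). Its other deletions of 2 to 19 bp held 24.7% of reads at 3 wpi, against 27.9% at 2 wpi (47.7% of the difference). Its microhomology deletions held 2.46% at 3 wpi, against 4.76% at 2 wpi (34.2%). Of the indel reads at 2 wpi these classes held 62.1% and 10.6%. At Lats2-sg2, 1 bp deletions (1.42% of reads at 3 wpi, 3.23% at 2 wpi) and insertions of 2 bp or more (0.966% and 2.46%) were also less frequent at 3 wpi. Its microhomology deletions went the other way, with 1.46% of reads at 3 wpi and 0.330% at 2 wpi, a term of opposite sign (-25.5% of the difference). The 3 over 2 wpi ratio of the share of all reads with 1 bp deletions was under 1 at every site. The ratio of the whole indel share was under 1 at every site too. For 1 bp deletions it was 0.676 for Lats1-sg1, 0.954 for Lats1-sg2, 0.473 for Lats2-sg1 and 0.439 for Lats2-sg2. At Lats1-sg2 this class thus fell less than the whole indel share. Among indel reads of that site it held 7.45% at 3 wpi and 6.63% at 2 wpi. As a share of indel reads the class passed at neither Lats1 site (adjusted Fisher p = 0.171 for Lats1-sg1 and 0.393 for Lats1-sg2). Counting 1 bp insertions and deletions as unedited left a difference of -0.743 points at Lats1-sg1 (adjusted p = 0.147) and of 0.381 points at Lats2-sg2 (adjusted p = 0.219), by the same Fisher's exact test, and kept the call at the other two sites.

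**Figure D2:**
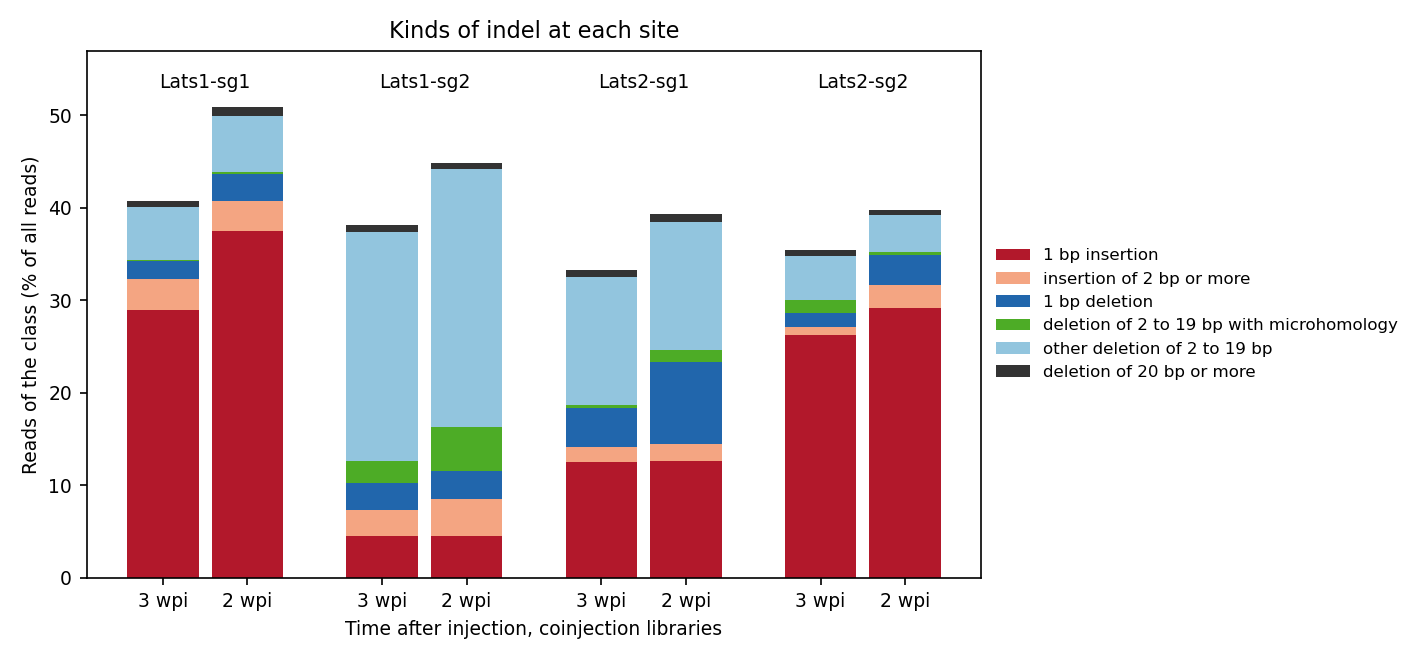
Share of all reads (percent, stacked) in each of the 6 indel classes, with the 3 wpi library left of the 2 wpi library at each site. The red 1 bp insertion block is shorter at 3 wpi at Lats1-sg1 (28.9% against 37.5%) and level at Lats2-sg1 (12.5% against 12.6%), where the dark blue 1 bp deletion block is the shorter one (4.19% against 8.85%).

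Shares of indel reads, which leave the total editing aside, were tested for 6 classes at 4 sites. Of these 24 tests 12 passed the adjusted Fisher test (50%), against 55% of the 120 such tests over all 20 time comparisons and 56.2% over the other 16, so that the number of calls is near the background. The largest shift was that of 1 bp deletions at Lats2-sg1, which made up 12.6% of indel reads at 3 wpi and 22.5% at 2 wpi. Their share fell by 9.89 points (-11.0 to -8.80, adjusted Fisher p = 4.37e-68). In the same libraries the 1 bp insertion rose by 5.58 points (37.6% at 3 wpi, 32.0% at 2 wpi), other deletions of 2 to 19 bp rose by 6.53 points (41.6% and 35.1%), and microhomology deletions fell by 2.38 points (0.945% and 3.32%). At Lats2-sg2 microhomology deletions did the reverse and rose by 3.29 points (4.12% at 3 wpi, 0.828% at 2 wpi, adjusted Fisher p = 1.96e-31). There 1 bp deletions fell by 4.11 points (4.0% and 8.11%), insertions of 2 bp or more fell by 3.45 points (2.73% and 6.18%) and other deletions of 2 to 19 bp rose by 3.25 points (13.3% and 10.04%). The 1 bp insertion, at 74.0% at 3 wpi and 73.3% at 2 wpi, did not pass at this site (0.711 points, -0.880 to 2.30).

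Fewer classes passed at the Lats1 sites, whose libraries held fewer indel reads, and the part of depth in this was not tested. At Lats1-sg2 only microhomology deletions passed: they fell by 4.16 points (6.44% of indel reads at 3 wpi, 10.6% at 2 wpi, adjusted Fisher p = 7.79e-06). At Lats1-sg1 the 1 bp insertion fell by 2.49 points (71.0% at 3 wpi, 73.5% at 2 wpi, adjusted p = 0.0401 by the Fisher test). Insertions of 2 bp or more rose by 1.89 points there (8.26% and 6.38%) and other deletions of 2 to 19 bp by 2.24 points (14.1% and 11.8%). Each of these 3 calls was lost under some settings. In a single tile the 1 bp insertion gave -2.45 and -2.53 points with adjusted Fisher p = 0.202 and 0.201. With alleles under 10 reads left out, both insertion classes passed in the opposite direction: the 1 bp insertion by 3.41 points (adjusted Fisher p = 0.00244) and insertions of 2 bp or more by -2.87 points (adjusted Fisher p = 7.78e-09). That minimum is a larger share of the 2553 indel reads at 3 wpi than of the 5253 at 2 wpi. Deletions of 20 bp or more passed at no site and made up between 1.45 and 2.27% of indel reads at 3 wpi and between 1.52 and 2.32% at 2 wpi.

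An allele is here the number of bases lost on each side of the cut together with the number inserted or the microhomology length. The repeat bases dropped by a microhomology deletion are counted to neither side. Before and after the cut mean the lower and higher amplicon positions, since the strand of the sgRNAs was not used. The inserted bases themselves were not used here, so 1 bp insertions of different bases count as 1 allele. The most frequent allele of each site was the same at 3 and 2 wpi, and also led in the 3 PTG libraries of that site, another arm of the series with sgRNAs against the same 4 sites. It was the 1 bp insertion at the cut at Lats1-sg1, Lats2-sg1 and Lats2-sg2, and a 2 bp deletion before the cut at Lats1-sg2.

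At Lats1-sg1 the 1 bp insertion made up 70.3% of indel reads at 3 wpi (1794 reads) and 72.6% at 2 wpi (3813 reads). It was the allele with the largest fall of this site (adjusted p = 0.0484 by the Fisher test), a call that was lost at a minimum of 5 or 50 reads per allele (adjusted p = 0.0535 in both). The next alleles were all small deletions on the lower side of the cut, several with bases filled in. A 2 bp deletion with 3 bp lost and 1 bp filled in had 4.47% at 3 wpi and 3.81% at 2 wpi, and a plain 2 bp deletion 2.51% and 2.63%. Neither passed (adjusted Fisher p = 0.217 and 0.854). A 1 bp deletion with 2 bp lost and 1 bp filled in fell to 2.12% at 3 wpi, against 3.10% at 2 wpi (adjusted Fisher p = 0.0191), and one with 3 bp lost and 2 bp filled in had 1.57% and 2.02% (adjusted p = 0.222). The largest rise was that of a 4 bp deletion with 5 bp lost and 1 bp filled in, with 14 reads (0.548%) at 3 wpi and 8 reads (0.152%) at 2 wpi (adjusted Fisher p = 0.00774).

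At Lats1-sg2 the 2 bp deletion before the cut held 51.1% of indel reads at 3 wpi (1118 reads) and 49.2% at 2 wpi (904 reads), without passing the test (1.92 points, -1.18 to 5.01, adjusted Fisher p = 0.275). As a share of all reads the same allele was lower at 3 wpi (19.5%, against 22.1% at 2 wpi), since the whole indel share was lower. The 1 bp insertion had the largest rise, to 11.6% of indel reads at 3 wpi, against 9.35% at 2 wpi (adjusted Fisher p = 0.0304). As a share of all reads it was level, at 4.43% at 3 wpi and 4.2% at 2 wpi (adjusted Fisher p = 0.658). A 3 bp deletion with 2 bp of microhomology had the largest fall: 5.21% of indel reads at 3 wpi (114 reads), against 9.68% at 2 wpi (178 reads), a ratio of 0.538 (adjusted Fisher p = 3.35e-07). This allele carries the fall of the microhomology class at this site. With a minimum of 3 bp in place of 2 bp the class kept few reads and changed by 0.222 points (adjusted Fisher p = 0.450). A plain 1 bp deletion before the cut had 5.34% at 3 wpi and 6.09% at 2 wpi (adjusted Fisher p = 0.393). A 4 bp deletion before the cut fell to 2.28% at 3 wpi, against 3.43% at 2 wpi (adjusted Fisher p = 0.0490, and between 0.0541 and 0.0619 at the other read minimums and within 5 bp of the cut).

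Lats2-sg1 had the least concentrated spectrum, and all 5 of its leading alleles shifted. The 1 bp insertion rose to 37.2% of indel reads at 3 wpi (3459 reads), against 31.9% at 2 wpi (2882 reads, adjusted Fisher p = 1.72e-12). Of all reads it held 12.4% at 3 wpi and 12.6% at 2 wpi, which did not pass (adjusted Fisher p = 0.524). The 2 bp deletions rose on both sides of the cut. The one before the cut reached 11.3% of indel reads at 3 wpi (1055 reads), against 4.01% at 2 wpi (362 reads), a 2.83-fold ratio and the largest rise of the site (adjusted Fisher p = 7.36e-77). The one after the cut had 11.1% at 3 wpi, against 7.40% at 2 wpi (adjusted Fisher p = 5.27e-17). The 1 bp deletions fell on both sides. The one before the cut had the largest fall, to 3.85% at 3 wpi (358 reads), against 9.71% at 2 wpi (876 reads), a ratio of 0.396 (adjusted Fisher p = 3.04e-55). The one after the cut had 6.55% at 3 wpi, against 9.55% at 2 wpi (adjusted Fisher p = 1.35e-12). Both 2 bp deletions were also more frequent among all reads at 3 wpi: 3.77% against 1.58% at 2 wpi before the cut, and 3.71% against 2.91% after it. The same 4 deletions did not keep a fixed order in the PTG libraries, where the 2 bp deletion before the cut had 1.16%, 8.68% and 7.38% of indel reads at 2, 3 and 6 wpi, and the 1 bp deletion before the cut 8.06%, 2.31% and 3.67%.

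Lats2-sg2 kept its leading allele and exchanged the minor ones. The 1 bp insertion had 73.1% of indel reads at 3 wpi (4370 reads) and 72.8% at 2 wpi (4222 reads, adjusted Fisher p = 0.758). Of all reads it fell to 25.9% at 3 wpi, against 29.0% at 2 wpi (adjusted Fisher p = 4.69e-09). The next 3 alleles fell: a 2 bp deletion with 3 bp lost after the cut and 1 bp filled in to 4.12%, against 7.38% at 2 wpi (adjusted Fisher p = 4.13e-13), and a 2 bp insertion to 0.987%, against 3.74% at 2 wpi (adjusted p = 2.35e-22). The largest fall was that of a 1 bp deletion with 2 bp lost after the cut and 1 bp filled in, with 1.94% at 3 wpi (116 reads) and 5.49% at 2 wpi (318 reads, ratio 0.354, adjusted Fisher p = 1.97e-23). A 3 bp deletion with 2 bp of microhomology had the largest rise, to 3.63% at 3 wpi (217 reads), against 0.776% at 2 wpi (45 reads), a 4.68-fold ratio (adjusted Fisher p = 6.68e-26). A microhomology minimum of 3 bp nearly emptied the class at this site. It kept a 14 bp deletion with 3 reads at 3 wpi and an 18 bp deletion with 3 reads at 2 wpi. Its difference of -0.00154 points therefore cannot show whether deletions with longer microhomology changed. In the PTG libraries this allele had 3.96%, 1.69% and 2.50% of indel reads at 2, 3 and 6 wpi.

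**Figure D3:**
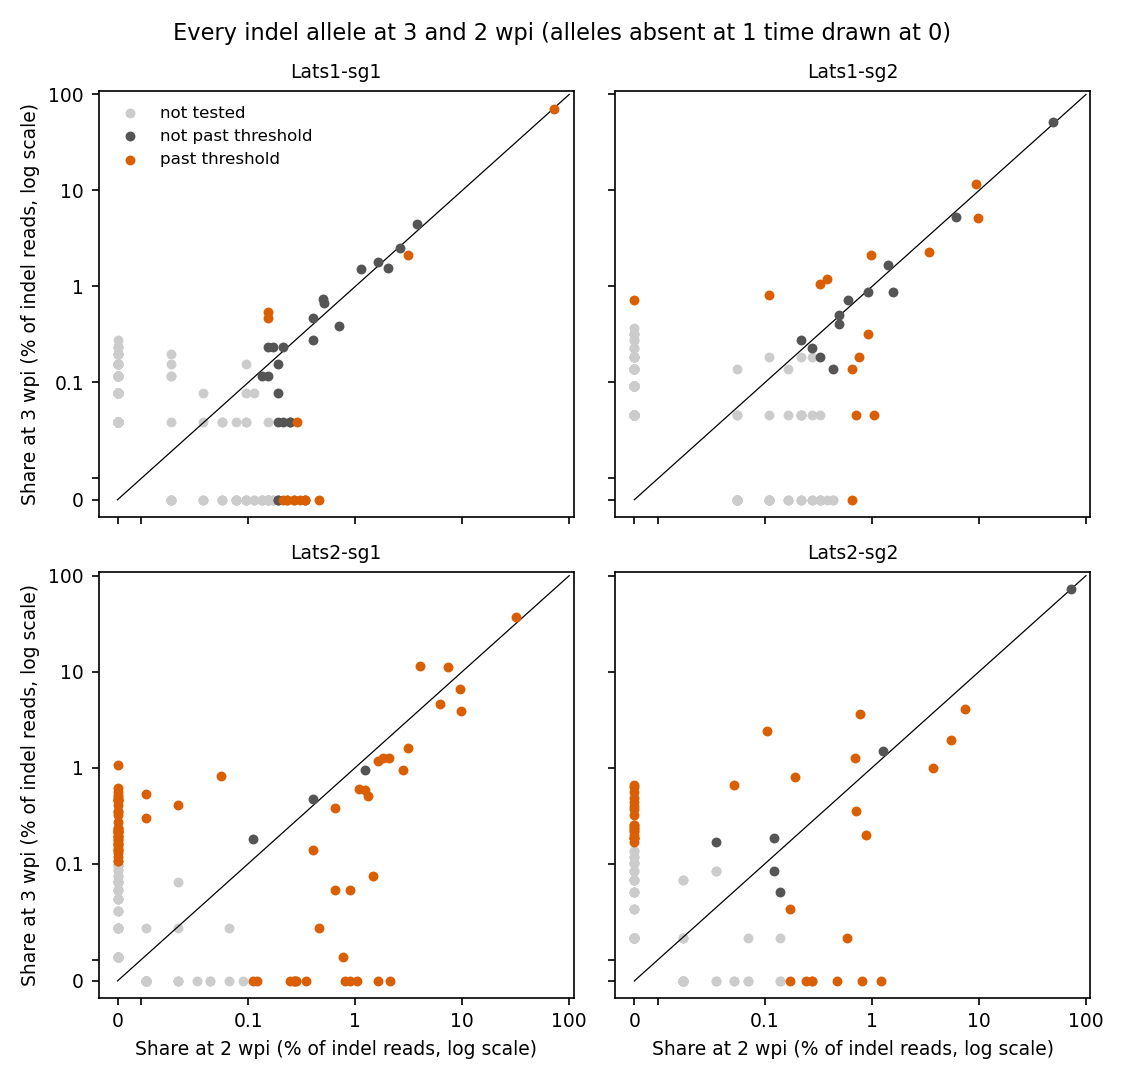
Share of indel reads (percent, log scale with 0 added) of every indel allele, at 3 wpi on the vertical and at 2 wpi on the horizontal axis, for each site; grey alleles had under 10 reads over both libraries and were not tested, and orange ones passed the adjusted Fisher test. The leading allele of each site lies near the line of equal shares, while alleles below 1% scatter widely or lie on an axis because 1 of the libraries has no read of them.

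Of 188 alleles with at least 10 reads over both times, 144 passed (76.6%), against 70.9% of 1282 alleles over all 20 time comparisons and 69.9% over the other 16. This count says little by itself, because 92 of the 188 had reads at only 1 time and so entered the test through the library where they are high, and 90 of these 92 passed. Of the 96 alleles read at both times, 54 passed (56.2%), against 50.1% of such alleles in the other 16 time comparisons, a share near the background. Among these 54 alleles, 19 were higher and 35 lower at 3 wpi. Of all 144 calls, 78 were higher at 3 wpi (41.5% of the alleles tested) and 66 lower (35.1%). By gene, the balance of all calls was 8 higher and 21 lower at the Lats1 sites, and 70 higher and 45 lower at the Lats2 sites. Alleles read at only 1 time gave 12 of the Lats1 calls and 78 of the Lats2 calls. This balance is therefore not read as a difference between the genes. Among alleles read at both times it was 7 higher and 10 lower at Lats1, and 12 higher and 25 lower at Lats2. Lats1-sg1 had 15 calls of 38, Lats1-sg2 14 of 26, Lats2-sg1 77 of 80 and Lats2-sg2 38 of 44. That is 45.3% at Lats1 and 92.7% at Lats2. The Lats2 libraries also held more indel reads (5797 to 9310, against 1839 to 5253 at Lats1), and the part of depth in this difference was not tested.

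The side of the cut on which most deletions lay was the same at both times at each site, though its share was lower at 3 wpi at Lats2-sg2. At Lats1-sg2, 89.5% of deletion reads at 3 wpi and 91.9% at 2 wpi lost bases only before the cut, and at Lats1-sg1 74.7% and 78.5% did. At Lats2-sg1, 54.5% and 53.7% lost bases only after the cut. At Lats2-sg2 this share was 69.0% at 3 wpi and 86.9% at 2 wpi, while deletions only before the cut held 15.1% and 3.54%. Filled-in bases marked the deletions of Lats1-sg1 (51.8% at 3 wpi, 56.7% at 2 wpi) and Lats2-sg2 (44.2% and 79.5%), and were rarer at Lats1-sg2 (5.44% and 4.63%) and Lats2-sg1 (9.13% and 10.3%). The split into sides and filled-in bases rests on where the authors' alignment placed each junction. It leaves out the repeat bases of microhomology deletions, which cannot be assigned to a side. Indels that shift a reading frame, with a length that 3 does not divide, made up 94.95% of indel reads at 3 wpi and 94.96% at 2 wpi at Lats1-sg1 and 89.9% (88.6 to 91.1%) and 84.6% (82.8 to 86.2%) at Lats1-sg2. They made up 87.3% (86.6 to 87.95%) and 84.1% (83.3 to 84.9%) at Lats2-sg1 and 93.7% (93.04 to 94.3%) and 97.7% (97.2 to 98.03%) at Lats2-sg2. The sites with the 1 bp insertion in over 70% of indel reads thus also have the highest share at both times.

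More distinct alleles were seen at 3 wpi at every site, although a smaller share of reads carried an indel. Lats1-sg1 had 155 alleles at 3 wpi and 91 at 2 wpi, Lats1-sg2 146 and 81, Lats2-sg1 118 and 72, and Lats2-sg2 85 and 60. Since the libraries differ in depth, the expected number of alleles in 1839 indel reads, those of the shallowest library, was computed exactly from the allele counts. At this equal depth Lats1-sg1 had 134 ± 3.91 alleles at 3 wpi and 77.3 ± 2.71 at 2 wpi (SD of the draw). Lats1-sg2 had 136 ± 2.86 at 3 wpi and 81 at 2 wpi, where all indel reads are used. The Lats2 sites had fewer at both times: 87.6 ± 3.41 at 3 wpi and 48.1 ± 2.58 at 2 wpi at Lats2-sg1, and 61.8 ± 3.10 and 39.9 ± 2.79 at Lats2-sg2. The ratio of 3 over 2 wpi was 1.73, 1.68, 1.82 and 1.55 in the order of sites used above. The EV libraries held 2, 3, 12 and 9 distinct alleles. The SD covers only the draw of reads. Without molecular identifiers the number of template molecules is not known, so equal reads need not mean equal templates. With 1 library per time the spread between animals in the allele number is unknown, and no test was made of it.

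**Figure D4:**
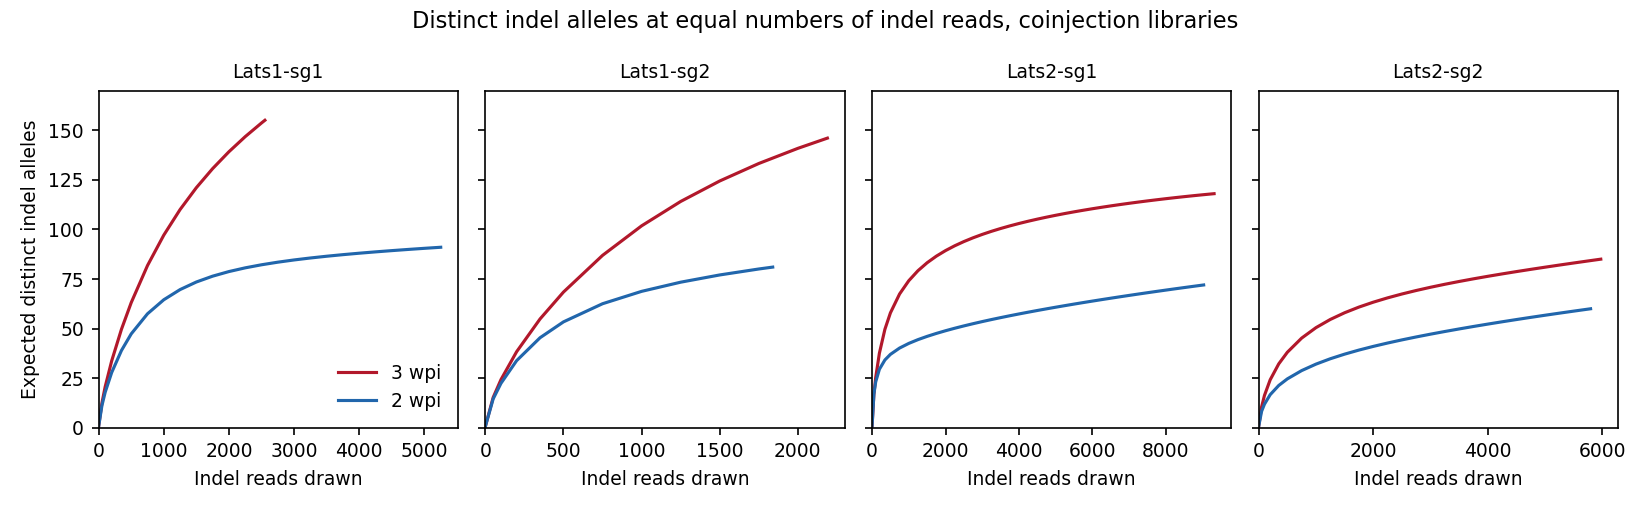
Expected number of distinct indel alleles (vertical) against the number of indel reads drawn (horizontal) for the 3 wpi and 2 wpi library of each site; each line ends at the library's own indel reads. The 3 wpi line lies above the 2 wpi line at all 4 sites, with 155 against 91 alleles at the ends for Lats1-sg1 and 85 against 60 for Lats2-sg2.

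The additional alleles of the Lats1 sites at 3 wpi were mostly rare ones. In the full libraries, which differ in depth, alleles seen in a single read numbered 66 at 3 wpi and 11 at 2 wpi at Lats1-sg1, and 57 and 19 at Lats1-sg2. The expected number of alleles with at least 10 reads, when as many indel reads were drawn from each library as the smaller of the site holds, was 13 at 3 wpi and 13.5 at 2 wpi at Lats1-sg1, and 14.4 and 16 at Lats1-sg2. At the Lats2 sites such alleles were more numerous at 3 wpi (61.4 against 37 at 2 wpi at Lats2-sg1, 32.3 against 19 at Lats2-sg2). Single-read alleles of the full libraries numbered 16 at 3 wpi and 22 at 2 wpi at Lats2-sg1, and 24 and 23 at Lats2-sg2.

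Measures weighted by frequency gave no common direction. The effective number of alleles, the inverse of the chance that 2 indel reads carry the same allele, was 2.01 at 3 wpi and 1.88 at 2 wpi at Lats1-sg1, and 3.55 and 3.76 at Lats1-sg2. It was 5.79 at 3 wpi and 7.34 at 2 wpi at Lats2-sg1, and 1.85 at both times at Lats2-sg2. Without the leading allele, the value at Lats2-sg2 was 15.05 at 3 wpi and 7.01 at 2 wpi, at Lats1-sg1 21.5 and 17.9, at Lats1-sg2 11.4 and 10.7, and at Lats2-sg1 11.4 and 13.5. Between the paralogs, Lats1 sites averaged 134.9 alleles and Lats2 sites 74.7 at 3 wpi at equal depth, and 79.2 and 43.97 at 2 wpi. Each Lats1 site exceeded each Lats2 site at both times, which 2 sites per gene cannot test.

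Both times shared 42 alleles for Lats1-sg1, 39 for Lats1-sg2, 32 for Lats2-sg1 and 27 for Lats2-sg2. These are between 26.7 and 31.8% of the alleles of a 3 wpi library and between 44.4 and 48.1% of those of a 2 wpi library. They held nearly all reads: between 87.0 and 91.9% of indel reads at 3 wpi and between 91.1 and 95.7% at 2 wpi. Some alleles of 1 time held many reads. The limits given here for a zero cover counting error only. They can be too low where few templates were amplified. At Lats2-sg1 a 6 bp deletion with 3 bp of microhomology had no read at 3 wpi, which allows a share of up to 0.0322% of indel reads, and 189 reads (2.09%) at 2 wpi. A 6 bp deletion after the cut had 100 reads (1.07%) at 3 wpi at this site and none at 2 wpi (up to 0.0332%). At Lats2-sg2 a 4 bp insertion had none at 3 wpi (up to 0.0502%) and 70 reads (1.21%) at 2 wpi.

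Alleles found in only 1 of the 5 sgRNA libraries of a site (2 of coinjection, 3 of PTG) were numerous but held few reads. Lats1-sg1 had 73 of them at 3 wpi and 37 at 2 wpi, Lats1-sg2 76 and 38, Lats2-sg1 64 and 36, and Lats2-sg2 45 and 25. Their reads made up between 5.25 and 8.35% of indel reads at 3 wpi and between 3.17 and 8.61% at 2 wpi. In contrast, 20, 13, 12 and 11 alleles at these sites occurred in all 5 libraries and held between 77.0 and 88.8% of indel reads at 3 wpi and between 74.9 and 91.8% at 2 wpi.

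The distance between 2 spectra was measured as the total variation distance, the share of indel reads that would have to change allele to turn one spectrum into the other. Between 3 and 2 wpi it was 0.127 for Lats1-sg1, 0.196 for Lats1-sg2, 0.314 for Lats2-sg1 and 0.160 for Lats2-sg2. The tiles of a single library, which sample the same DNA, were between 0.0511 and 0.115 apart at 3 wpi and between 0.0297 and 0.0860 apart at 2 wpi. Tiles share 1 DNA preparation, and the distance between separate libraries of 1 time was not measured here. On indel lengths, which can be compared between sites, the 4 pairs of the same site at both times had a median distance of 0.122 (0.0908 to 0.261). The 8 pairs of both sites of a gene had a median of 0.568 (0.411 to 0.701), and the 16 pairs of sites of different genes a median of 0.462 (0.0930 to 0.708). By these medians, spectra of the same gene were no closer than those of different genes. The pairs repeat the same few site pairs across times, with 1 site pair within each gene, so genes as such cannot be compared. The closest pair of different sites was Lats1-sg1 and Lats2-sg2, both led by the 1 bp insertion, at 0.0930 at 2 wpi.

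The PTG libraries of the same sites did not share the direction of the indel share. Their shares at 2, 3 and 6 wpi were 55.2%, 63.7% and 43.7% for Lats1-sg1, 9.65%, 15.5% and 26.2% for Lats1-sg2, 5.79%, 11.8% and 24.4% for Lats2-sg1, and 5.90%, 16.9% and 35.5% for Lats2-sg2. All 4 were thus higher at 3 than at 2 wpi, and the difference between the arms was not tested.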

How the data were processed

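Amplicons around each cut site, from genomic DNA of mouse hepatocytes, were sequenced (per the labels' protocols). R 4.2.1, Bowtie2, bcl2fastq, deepTools and the mm10 build stand in the submitters' processing notes, which assign them no role. Which tool placed the junctions is not given in the sources at hand. The deposited tables hold 1 line per read with junction positions, indel length and microhomology length in bp, per the file headers, and no normalised values. Sites, arms and times come from the labels.

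Shares have exact Clopper-Pearson intervals and differences Newcombe intervals, at 95%. Tests were two-sided Fisher's exact tests, adjusted by Benjamini-Hochberg over all 20 time comparisons of the series (times 6 classes, or over all alleles with at least 10 reads), at a threshold of 0.05. Differences of changes between sites used a normal interval for 4 independent shares and were adjusted over 6 pairs. A zero allows up to 3 reads by counting error alone. Named alleles are the 5 most frequent per site over both times, and the largest rise and fall among those that passed. Members, lists and rules were chosen with earlier results of these data known. Alternatives changed the read minimum, the handling of 1 bp indels, replacements and the leading allele, the distance to the cut, the microhomology minimum, the tile, the scale and the denominator. The Fisher test and the expected allele number were tested on simulated data with independently drawn reads. These held no duplicate reads and no spread between animals, so the p-values were not checked against either. The gene positions are those of RefSeq on GRCm38.p6 (mm10). Computations ran in Python 3.11.15 with scipy 1.17.1, pandas 2.3.3, numpy 2.4.6 and matplotlib 3.10.9.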

Additional observations from a re-analysis of the deposited data

Results flagged for a closer look

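The change of the indel share between times differed between sites by a test of the difference itself in 4 of the 6 site pairs, a Wald test on binomial read counts adjusted over the 6 pairs. These tests treat reads as independent and compare 4 libraries each, 1 per site and time. The change at Lats1-sg1 exceeded that of every other site in size. Lats1-sg1 minus Lats1-sg2 was -3.50 points (-6.01 to -0.985). Lats1-sg1 minus Lats2-sg1 was -4.13 points (-5.89 to -2.36), and Lats1-sg1 minus Lats2-sg2 was -5.80 points (-7.69 to -3.91). Lats2-sg1 minus Lats2-sg2 was -1.68 points (-3.04 to -0.314). On the ratio scale 3 of the 4 held: the pair of Lats1 sites had a ratio of ratios of 0.940 (adjusted p = 0.0611, Wald test on binomial counts), so sites of 1 gene and of both genes were among the pairs that differed.

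Reads with the cut site replaced by as many bases as were lost have a net length of 0 and are counted as unedited in the report. In 5 of the 8 coinjection libraries they were more frequent than in the EV library of the site (two-sided Fisher's exact test adjusted over 8 libraries). At 3 wpi they made up 0.711% of reads at Lats2-sg1 and 1.14% at Lats2-sg2. At 2 wpi they made up 0.537% for Lats1-sg2, 0.921% for Lats2-sg1 and 1.07% for Lats2-sg2. The EV libraries held 0.343% for Lats1-sg1, 0.214% for Lats1-sg2, 0.246% for Lats2-sg1 and 0.503% for Lats2-sg2. The largest excess over EV was 0.674 points (0.540 to 0.817), at Lats2-sg1 at 2 wpi. Replacements of a single base made up 78.4% of those at Lats2-sg1 at 3 wpi and 66.8% at 2 wpi, against 39.7% in EV. Longer replacements held 0.154% of reads at Lats2-sg1 at 3 wpi and 0.305% at 2 wpi, against 0.149% in EV. The excess at 3 wpi was thus almost all of single bases, and whether these arose by repair of the cut was not tested. At Lats2-sg2 the median length of replacements was 3 bp at both times.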

How the results depend on the processing

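The fall of the indel share kept its direction and its call at all 4 sites under each alternative run but 2. With 1 bp indels counted as unedited, Lats1-sg1 changed by -0.743 points (adjusted Fisher p = 0.147) and Lats2-sg2 reversed to 0.381 points (adjusted Fisher p = 0.219). With 1 bp indels left out Lats2-sg2 changed by -0.201 points (adjusted Fisher p = 0.647). The 1 bp insertion makes up most of the indel reads and most of the difference at both sites. The count of 144 changed alleles became 43 at a minimum of 50 reads, 78 on indel lengths, 93 within 5 bp of the cut and 54 over alleles read in both libraries, an alternative chosen after seeing the data; in each fewer alleles are tested. Some values of single classes and alleles reversed. Without alleles under 10 reads these were the 1 bp insertion (3.41) and longer insertions (-2.87) of Lats1-sg1. Microhomology deletions reversed at a 3 bp minimum at Lats1-sg2 (0.222) and Lats2-sg2 (-0.00154), where the class kept few reads. As shares of all reads, the filled-in 2 bp deletion of Lats1-sg1 (-0.121) and the 2 bp deletion of Lats1-sg2 (-2.58) reversed. So did the 1 bp insertion of Lats2-sg1 (-0.211) and Lats2-sg2 (-3.12). Distinct alleles reversed only where alleles under 10 reads were left out: to -18.98 at Lats1-sg1 and -1 at Lats1-sg2 with the minimum set before depth was matched, which is stricter for the smaller library, and to -0.534 and -1.56 with it set after an equal draw, chosen after seeing the data. No paired analysis was possible because each group is 1 library with no replicate number to pair, and matching was by site only. Indel reads were fewest in the Lats1 libraries (1839 to 5253).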

Other observations

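Long insertions, with a net gain of 20 bp or more, were found at all 4 sites. Some of them had also lost bases at the cut, so the inserted stretch can be longer than the net gain. They made up 5.91% of indel reads at 3 wpi (5.03 to 6.90%) and 3.83% at 2 wpi (3.32 to 4.38%) at Lats1-sg1, and 4.89% (4.02 to 5.88%) and 6.47% (5.39 to 7.69%) at Lats1-sg2. At Lats2-sg1 they held 3.98% at 3 wpi (3.60 to 4.402%) and 3.83% at 2 wpi (3.45 to 4.25%), and at Lats2-sg2 1.74% (1.42 to 2.11%) and 0.397% (0.252 to 0.595%). The intervals of both times are apart at Lats1-sg1 and Lats2-sg2, both higher at 3 wpi, and overlap at the other two sites. These differences were not tested. In the order Lats1-sg1, Lats1-sg2, Lats2-sg1, Lats2-sg2, the 3 wpi libraries held 62, 51, 29 and 19 distinct long insertions and the 2 wpi libraries 24, 29, 21 and 12. These are counts of the full libraries, which differ in depth, and were not matched for it. The largest net gains were 130, 140, 162 and 163 bp at 3 wpi and 113, 138, 173 and 165 bp at 2 wpi. The 140 bp gain at Lats1-sg2, for example, came with 41 bp lost. The inserted bases were not analysed here.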
